A study of Mus musculus with 18 samples.

Results

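The 10 genes described here are grouped as complement components and regulators of the brain: the chains of C1q (C1qa, C1qb and C1qc), the components C3 and C4b, the receptor subunit Itgam, and Serping1, Csmd1, Csmd2 and Csmd3 as regulators. They were taken by symbol from the 30905 genes of the count matrices, where the symbol Itgam stands beside 2 gene identifiers. Complement is a chain of plasma and tissue proteins in which C1q binds a surface, its partner proteases cleave C4 and C2, and the resulting enzyme cleaves C3. Fragments of C3 left on the surface are read by the receptor CR3, whose alpha chain CD11b is the product of Itgam. In the brain C1q is known as a product of microglia, and C1q and C3 are known for tagging synapses that microglia then remove. The C1 inhibitor Serping1 blocks the proteases. The Csmd genes encode very large membrane proteins of neurons and glia that carry CUB and sushi domains, and of these Csmd1 can restrain complement.

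Single-nucleus RNA-seq was carried out on the hippocampus (Hip) and the prefrontal cortex (PFC) of 9 Kun Ming mice aged 8 weeks, 3 in each group, with 1 library for each mouse and region. Germ-free (GF) mice were raised without microbes in isolators, specific pathogen-free (SPF) mice carried an ordinary gut microbiota, and colonized germ-free (CGF) mice were GF mice co-housed with SPF mice from 4 weeks of age for 4 weeks. The questions were which genes of each cell type differ without a microbiota, whether late colonization brings them back to the SPF level, and whether both regions respond alike. CGF mice were thus germ-free in early life. GF mice are numbered 5, 6 and 7, SPF mice 30, 31 and 32, and CGF mice 17, 18 and 19, and values below follow that order.

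The matrices held 72226 barcodes in Hip and 67698 in PFC, of which 71398 and 66602 were kept as nuclei. In Hip, the libraries held 49067853 to 63217083 UMIs (unique molecular identifiers, each a counted RNA molecule). In PFC the GF libraries stood apart: they held 59126586 to 71463928 UMIs with a median of 6721 to 7338.5 per nucleus and 0.359% to 0.594% mitochondrial UMIs, whereas the SPF and CGF libraries held 20336250 to 26949210 UMIs with medians of 2330 to 3187 and 1.28% to 3.22% mitochondrial UMIs. In Hip the GF libraries stood apart too, with 0.645% to 1.10% mitochondrial UMIs against 0.0770% to 0.471% in the others. Their medians of 4593 to 5809.5 UMIs were below the 6132 to 7054 of SPF libraries but overlapped with the 5444.5 to 7559.5 of CGF libraries. In both regions, GF status and these differences between libraries cannot be told apart. Between the regions the gap lay in the other groups: SPF and CGF libraries of Hip had medians of 5444.5 to 7559.5 UMIs and 0.0770% to 0.471% mitochondrial UMIs, well apart from their PFC libraries, whereas the GF libraries of Hip were nearer to those of GF mice in PFC. In SPF and CGF mice, region and this gap cannot be told apart, and the same holds for every comparison of changes between regions. Any 2 libraries shared 6 to 29 barcodes, at most 0.362% of the smaller library. The nuclei of a type also separated by group, most fully in PFC. There 5 clusters of excitatory neurons held 1598 to 4176 GF nuclei each and 0 nuclei of the other groups, and the other 7 held at most 13 GF nuclei each. Interneurons split likewise, astrocytes into clusters of 1859 GF, 2 SPF and 2 CGF nuclei and of 34, 1621 and 1887, oligodendrocytes into 1038, 1 and 3 and 29, 859 and 848, OPC into 714, 2 and 1 and 23, 516 and 554, and fibroblasts into 779, 6 and 13 and 67, 374 and 604, so every PFC value of these types sets GF clusters against others. In PFC, one microglial cluster held 980 GF nuclei but 2 SPF and 10 CGF nuclei and the other held 41, 598 and 530, while in Hip the microglia formed 1 cluster of 663 GF, 894 SPF and 654 CGF nuclei. In Hip the oligodendrocytes lay in a cluster of 111 GF, 1979 SPF and 2060 CGF nuclei and one of 1578, 113 and 40, and the astrocytes in a cluster of 122, 1744 and 2333 and one of 1628, 432 and 368. Excitatory neurons of Hip parted less fully, with clusters of 4665, 778 and 668, of 2798, 664 and 705 and of 2113, 318 and 253 on one side and one of 146, 1304 and 1901 on the other. The members were left out of the genes used for clustering and naming. UMIs were summed over the nuclei of a type in a library, and a level is given in CPM, the UMIs of the gene in each 1000000 UMIs of that type in that library. A fold change is the log2 fold change of edgeR's quasi-likelihood test on these sums, with its standard error (SE) and a p-value adjusted by the Benjamini-Hochberg method over all genes tested in that type. A change passed the test when the adjusted p was below 0.05.

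The C1q chains lie side by side on chromosome 4 of GRCm38, all on the minus strand: C1qb at chr4:136880129-136886187, C1qc at chr4:136889804-136893065 and C1qa at chr4:136895917-136898803. The chains moved together in microglia, and of them C1qb and C1qc matched the RefSeq promoters (GRCm38.p6, 250 bases before to 50 after the start), which are shown 5′ to 3′ on the gene's own strand. The first covers chr4:136886151-136886450 and the second chr4:136892865-136893164. Positions below count from the RefSeq start, which for C1qc lies inside the gene span given above and not at its end. Capitals mark the ETS core GGAAG, or CTTCC on the other strand, which the transcription factor PU.1 of macrophages and microglia recognises within a longer motif.
C1qb promoter: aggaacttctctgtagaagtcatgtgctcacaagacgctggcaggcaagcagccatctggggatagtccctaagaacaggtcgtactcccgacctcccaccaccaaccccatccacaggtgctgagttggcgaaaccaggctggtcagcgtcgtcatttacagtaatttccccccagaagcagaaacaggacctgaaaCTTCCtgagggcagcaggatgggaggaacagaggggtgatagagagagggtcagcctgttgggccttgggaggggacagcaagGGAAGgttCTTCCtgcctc
C1qc promoter: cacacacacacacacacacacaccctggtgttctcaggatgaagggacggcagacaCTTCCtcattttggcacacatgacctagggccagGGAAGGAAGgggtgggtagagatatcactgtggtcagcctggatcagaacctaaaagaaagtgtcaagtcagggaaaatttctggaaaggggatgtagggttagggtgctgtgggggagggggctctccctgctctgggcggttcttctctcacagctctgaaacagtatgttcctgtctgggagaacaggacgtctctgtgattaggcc
The C1qc promoter held the PU.1 core GAGGAAGT on the opposite strand (as ACTTCCTC) at position -195 relative to the start, and that match contains the ETS core at -194. Further ETS cores lay at -160 and -156 in C1qc and at -52, 32 and 40 in C1qb, which held no PU.1 core. Of all 32851 RefSeq promoters of this length, 3.2% held the PU.1 core and 71.4% held the ETS core on either strand, so an ETS core alone did not set these promoters apart. The promoter of Itgam held ETS cores at -82 and 32, and that of C3 held neither motif. A match of letters is a description and does not show that a factor binds.

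Microglia held the highest level of each C1q chain in both regions. The mean level over the 9 libraries was 288 CPM of C1qa in microglia of Hip and 417 CPM in PFC, against 23.8 CPM in endothelial cells of Hip and 20.8 CPM in fibroblasts of PFC, the next types in order. For C1qb the microglial means were 198 and 330 CPM, and for C1qc 139 and 192 CPM. In each region the difference of each chain between microglia and the next type had the same sign in 9 of 9 libraries (exact sign-flip permutation test, two-sided, adjusted p = 0.0172 in Hip and 0.0266 in PFC, from the smallest p that 9 libraries allow, 0.00390625). After microglia, no difference between neighbouring types passed for C1qa in either region. Although microglia were only 2.40% to 4.76% of nuclei in a Hip library and 1.43% to 4.47% in a PFC library, they held 14.9% to 39.6% of the C1qa UMIs of a Hip library and 9.47% to 45.0% in PFC. The rest came from the far more numerous other nuclei, at low levels in the named types. These others include 11068 nuclei of Hip and 5186 of PFC in clusters that were not named, whose levels are not given here.

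**Figure D1:**
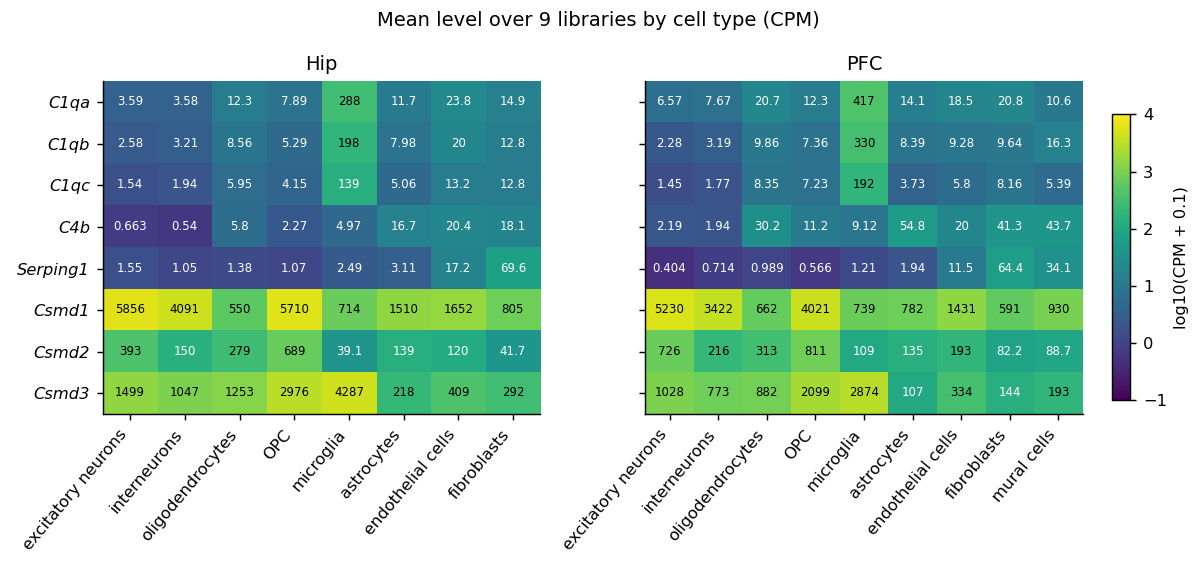
Mean level of 8 members in each cell type of Hip and PFC (colour, CPM on a log scale, mean over 9 libraries). The C1q chains peak in microglia, Serping1 in fibroblasts, Csmd1 in excitatory neurons and OPC, and Csmd3 in microglia, at 4287 CPM in Hip.

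C1q was higher in the microglia of GF mice in both regions, and the CGF values lay with the SPF values. C1qa, the chain whose loss removes C1q, stood at 622, 675 and 671 CPM in the Hip microglia of the GF mice, at 132, 77.1 and 129.9 CPM in SPF mice and at 93.5, 66.6 and 128 CPM in CGF mice. The GF values were far above the other 6, which overlapped. In PFC, C1qa stood at 659.7, 794 and 638 CPM in GF, 328, 250.5 and 248 CPM in SPF, and 325, 274 and 238 CPM in CGF mice. The 3 GF libraries were again above all others. The log2 fold change of GF against SPF was 2.52 (SE 0.19, adjusted p = 4e-10) in Hip and 1.25 (SE 0.19, adjusted p = 3.9e-06) in PFC. Against CGF mice, C1qa was higher in GF mice by 2.73 (SE 0.21) in Hip and 1.13 (SE 0.19) in PFC.

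C1qb stood at 443, 334 and 392.3 CPM in the Hip microglia of GF mice, at 146, 69.4 and 90.4 CPM in SPF mice and at 106, 69.4 and 129.96 CPM in CGF mice. In PFC the C1qb levels were 431, 507 and 384 CPM in GF, 249, 281 and 263 CPM in SPF and 301, 259 and 291 CPM in CGF mice. The GF libraries did not overlap with the others in either region, but the gap was narrower in PFC. The log2 fold change of C1qb in GF against SPF was 1.91 (SE 0.22, adjusted p = 3.1e-07) in Hip and 0.60 (SE 0.19, adjusted p = 0.012) in PFC. C1qc followed, at 267, 252 and 292 CPM in the Hip microglia of GF mice, 104, 50.1 and 72.4 CPM in SPF and 75.3, 58.3 and 81.2 CPM in CGF mice. In PFC, C1qc stood at 264, 338 and 257 CPM in GF, 125, 114 and 175 CPM in SPF and 148, 106 and 198 CPM in CGF mice. Its log2 fold change was 1.81 (SE 0.21, adjusted p = 3.7e-07) in Hip and 0.85 (SE 0.23, adjusted p = 0.0033) in PFC. Of all genes tested in microglia, 15.0% in Hip and 18.5% in PFC passed the test in the same direction, higher in GF.

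**Figure D2:**
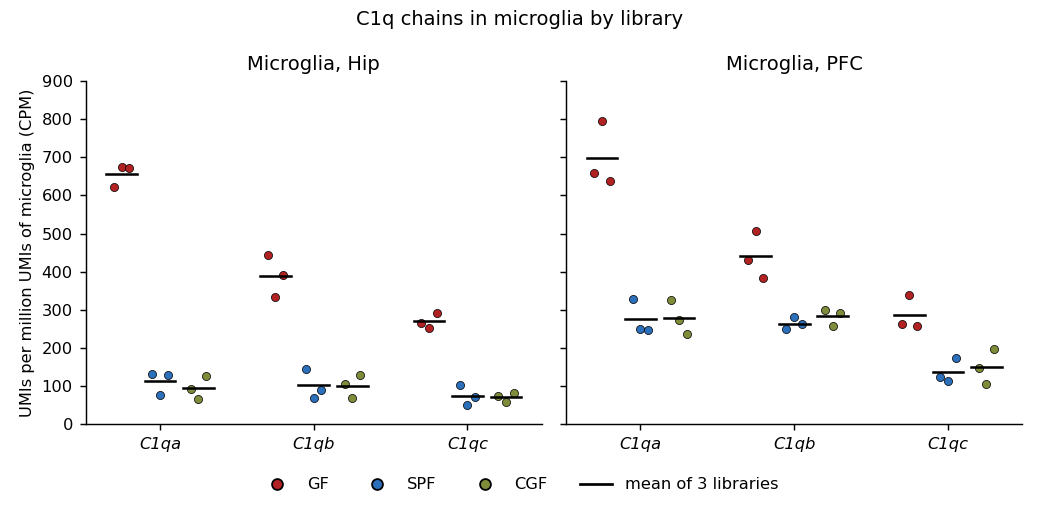
Level of C1qa, C1qb and C1qc in microglia of each library (vertical axis, CPM; points are libraries, bars are group means; GF, SPF and CGF in Hip and PFC). All 3 GF libraries lie above all SPF and CGF libraries for each chain in both regions.

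In GF mice each chain differed between the regions by less than its SE, whereas in SPF and CGF mice each was lower in Hip microglia. The microglia of GF mice were of like depth in both regions, with a median of 1507 to 1744 UMIs in Hip and 1476.5 to 1669 in PFC, while those of SPF mice had 1659 to 2196 in Hip and 642 to 675 in PFC and those of CGF mice 1569.5 to 1877 and 615.5 to 754.5. In SPF and CGF mice the region and this depth gap cannot be told apart. Hip minus PFC, the log2 difference of C1qa was -0.06 (SE 0.17, adjusted p = 0.98) in GF mice, -1.39 (SE 0.23, adjusted p = 1.8e-05) in SPF mice and -1.70 (SE 0.24, adjusted p = 1.3e-06) in CGF mice. For C1qb it was -0.15 (SE 0.18), -1.51 (SE 0.24) and -1.60 (SE 0.25), and for C1qc -0.05 (SE 0.18), -1.07 (SE 0.27) and -1.14 (SE 0.29) in the same order, with the SPF and CGF values past the test. The C1qc value did not pass in SPF mice without mouse 32 (-0.67), nor in CGF mice without mouse 17 (-1.15) or once each library's dependence on gene length and GC content, called the length and GC trend below, was removed (-0.78). The GF against SPF change was accordingly greater in Hip than in PFC, by 1.33 for C1qa (SE 0.28, adjusted p = 0.0013), 1.36 for C1qb (SE 0.30, adjusted p = 0.0019) and 1.02 for C1qc (SE 0.33, adjusted p = 0.037). The C1qc difference did not pass with DESeq2, with no filter on low counts or without any one of GF mice 5 and 7, SPF mice 31 and 32 and CGF mouse 18, with the smallest value without SPF mouse 32 (0.62), nor with that trend removed (0.60, adjusted p = 0.29). With the sums thinned to the lowest depth it passed in 4 of 10 random draws (0.74 to 1.34). With the trend removed, the GF against SPF changes in Hip microglia were 1.76, 1.35 and 1.05 for C1qa, C1qb and C1qc and still passed.

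Nuclei with at least 1 UMI gave the same order. C1qa was seen in 59.5% to 61.1% of the Hip microglial nuclei of a GF library, in 12.0% to 22.7% in SPF and in 9.72% to 19.5% in CGF libraries. With each nucleus thinned to 500 UMIs the shares with C1qa were 25.1% to 27.5%, 3.74% to 5.82% and 3.31% to 6.11%. In PFC, where GF microglia had a median of 1476.5 to 1669 UMIs and the other groups 615.5 to 754.5, the thinned shares with C1qa were 25.6% to 30.1% for GF mice, 11.3% to 14.4% for SPF mice and 11.5% to 12.97% for CGF mice. In excitatory neurons, which should lack the gene, the unthinned share with C1qa was 1.57% to 4.69% in Hip and 2.24% to 5.74% in PFC. Counts rest on 195 to 333 microglial nuclei in a Hip library and 108 to 369 in a PFC library. The summed level of 8 microglial markers in these nuclei was also higher in GF mice: 7354 to 8075 CPM in the GF libraries of Hip against 4729 to 6552 CPM in SPF libraries, with CGF libraries at 6036 to 6640 CPM. In PFC the same sum was 7260 to 8793 CPM in GF libraries, against 4475 to 5731 CPM in SPF libraries and 4684 to 5717 CPM in CGF libraries. The summed level of 5 excitatory-neuron markers in the Hip microglia was 511 to 640 CPM for GF mice, 924 to 1240 CPM for SPF mice and 852 to 996 CPM for CGF mice. The sum of 7 markers of border macrophages, which also make C1q, was 153 to 469 CPM for GF mice, 268 to 365 CPM for SPF mice and 399.8 to 836 CPM for CGF mice in Hip microglia. The part of neuronal RNA, of border macrophages and of the microglial markers' level in the C1q result was not tested.

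The mix of chains differed as well. Of the C1q UMIs in microglia, C1qa made 46.7% to 53.5% in the GF libraries of Hip, 34.5% to 44.4% in SPF and 34.0% to 37.7% in CGF libraries. In PFC the C1qa share was 48.4% to 49.9% for GF mice, 36.2% to 46.8% for SPF mice and 32.7% to 42.9% for CGF mice. The GF libraries did not overlap with the others in either region, at 55 to 832 C1q UMIs a library. No test was run on these shares.

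Outside microglia the chains parted in PFC. In excitatory neurons of PFC, C1qa stood at 5.76, 4.10 and 4.88 CPM in GF, 10.4, 7.46 and 8.88 CPM in SPF, and 5.15, 5.19 and 7.30 CPM in CGF mice, so that SPF was the highest group. C1qb in the same nuclei stood at 4.20, 3.06 and 4.05 CPM in GF, 1.82, 1.61 and 1.70 CPM in SPF, and 1.23, 1.21 and 1.64 CPM in CGF mice, with GF the highest. The log2 fold change of GF against SPF was -0.69 for C1qa (SE 0.18, adjusted p = 0.0054) and 1.30 for C1qb (SE 0.20, adjusted p = 0.00014). C1qa thus made 73.2% to 76.9% of the C1q UMIs of these neurons in SPF and 69.6% to 73.0% in CGF libraries, but 44.8% to 47.3% in GF libraries, where it made 48.4% to 49.9% in microglia. In the microglia of the same SPF libraries C1qa made 36.2% to 46.8%. In Hip the C1qa share in excitatory neurons was 48.1% to 49.8% for GF mice, 42.5% to 48.1% for SPF mice and 38.5% to 48.9% for CGF mice.

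In the excitatory neurons of Hip, C1qa was 4.92, 7.13 and 5.40 CPM in GF, 2.86, 2.49 and 3.97 CPM in SPF and 1.38, 1.76 and 2.42 CPM in CGF mice. Its log2 fold change of GF against SPF was 0.73 (SE 0.23, adjusted p = 0.024). It did not pass without GF mouse 6 (0.58), SPF mouse 30 (0.69) or SPF mouse 31 (0.60), and was 0.04 once the length and GC trend was removed. Between regions, the C1qa change in excitatory neurons differed by 1.37 (SE 0.29, adjusted p = 0.00078), with opposite directions in Hip and PFC. C1qb also rose in GF mice in the interneurons of PFC (1.86, SE 0.44, adjusted p = 0.0021) and the astrocytes of PFC (2.16, SE 0.55, adjusted p = 0.0023), at levels of at most 21.3 CPM. C1qb in these types was 0.620% to 3.998% of its microglial level. The summed level of the 8 microglial markers was also higher in GF mice there, at 69.6 to 74.1 CPM in GF and 48.1 to 53.1 CPM in SPF interneurons and at 87.5 to 107 CPM in GF and 61.0 to 70.3 CPM in SPF astrocytes. In excitatory neurons the same sum was 67.5 to 79.0 CPM in GF and 49.8 to 55.5 CPM in SPF libraries of Hip, and 54.7 to 59.2 CPM and 47.3 to 49.1 CPM in PFC. The part of microglial RNA in the C1q levels of these types was not tested. Against CGF mice, 12 of the 16 tested pairs of a C1q chain and a major Hip type passed as higher in GF mice and none as lower, and in PFC 7 of 10 passed as higher. Of all gene and type pairs, 37.3% in Hip and 50.9% in PFC passed this comparison in either direction. Against SPF mice, 4 of 16 C1q pairs passed as higher in Hip, where 36.3% of all pairs passed, and 7 of 10 in PFC, where 51.9% passed. C1qa in excitatory neurons was the 1 pair that passed as lower in PFC. With the length and GC trend removed, 3 passed as higher and 1 as lower than in SPF mice in Hip and 7 as higher and 1 as lower in PFC, while against CGF mice 5 of 16 passed as higher in Hip and 7 of 10 in PFC.

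**Figure D3:**
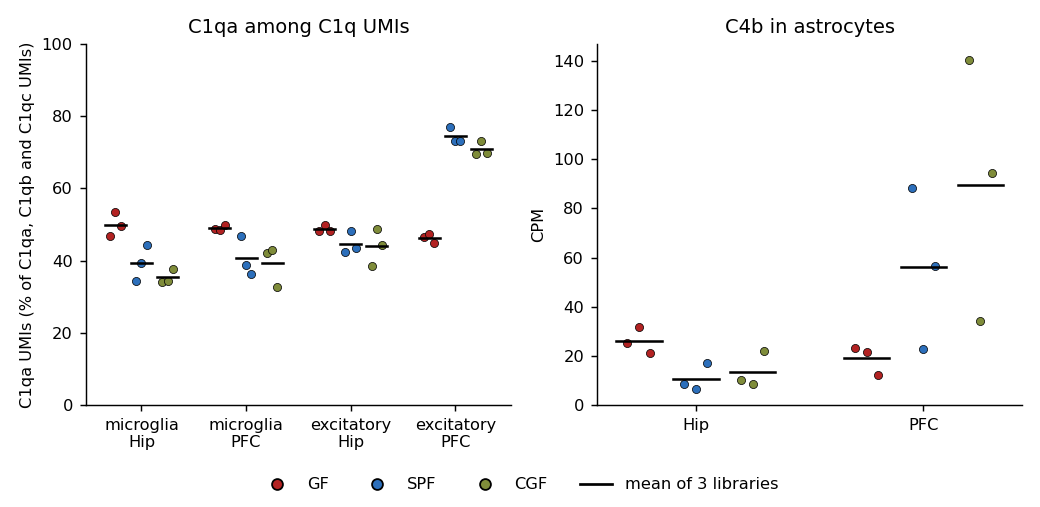
Share of C1qa among the C1q UMIs in microglia and in excitatory neurons (percent), and level of C4b in astrocytes (CPM), for each library by group in Hip and PFC. In the excitatory neurons of PFC the SPF and CGF libraries lie at 69.6% to 76.9% and the GF libraries at 44.8% to 47.3%. C4b lies higher in GF than in SPF astrocytes of Hip, and in PFC it lies lower in GF than in all but 1 library of the other groups.

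C4b, the complement C4 of the classical pathway, lies in the major histocompatibility region at chr17:34728380-34743882 on the minus strand of GRCm38. No value of its near-identical copy C4a is given here, and reads of the copies cannot be separated with certainty, so C4b counts are uncertain by that amount. C4b was sparse, with 950 UMIs in all Hip libraries and 1298 in PFC. In Hip its highest means were 20.4 CPM in endothelial cells, 18.1 CPM in fibroblasts and 16.7 CPM in astrocytes, and the differences between these neighbours did not pass, while astrocytes were above oligodendrocytes (exact sign-flip permutation test, adjusted p = 0.0286). The endothelial mean leans on 1 library, where these cells held 45.2% of the C4b UMIs, against a median of 6.4% over the libraries. In PFC the highest means were 54.8 CPM in astrocytes, 43.7 CPM in mural cells, 41.3 CPM in fibroblasts and 30.2 CPM in oligodendrocytes, and no difference between neighbours in the order passed. The mural mean rests on CGF mouse 17, at 285 CPM against at most 47.7 CPM in the other libraries, and fibroblasts were above mural cells in 6 of 9 libraries.

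C4b in astrocytes moved in opposite directions in the regions. In Hip astrocytes it stood at 25.4, 31.8 and 21.0 CPM in GF, 8.63, 6.63 and 16.97 CPM in SPF and 9.95, 8.36 and 21.8 CPM in CGF mice. The GF values were above the SPF values, and CGF mouse 19 lay within the GF range. In PFC astrocytes it stood at 23.1, 21.6 and 12.1 CPM in GF, 88.5, 22.7 and 56.7 CPM in SPF and 140.3, 34.0 and 94.3 CPM in CGF mice. The GF libraries were below all CGF libraries and below those of SPF mice 30 and 32, while SPF mouse 31 lay within the GF range. The log2 fold change of C4b in GF against SPF was 1.26 in Hip (SE 0.36, adjusted p = 0.013) and -1.55 in PFC (SE 0.40, adjusted p = 0.0027), a difference of 2.79 (SE 0.63, adjusted p = 0.0016). The Hip change did not pass without GF mouse 6 (1.09, adjusted p = 0.061) or SPF mouse 31 (adjusted p = 0.054), and the PFC change did not pass at a finer clustering (-1.07, adjusted p = 0.081). These C4b values rest on 12 to 127 UMIs a library. The summed level of fibroblast markers in PFC astrocytes was 205 to 258 CPM over all groups.

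In the excitatory neurons of PFC, C4b was highest in CGF mice. It stood at 4.02, 3.68 and 7.78 CPM in CGF mice, against 0.713, 0.341 and 1.85 CPM in SPF and 0.425, 0.385 and 0.538 CPM in GF mice. The CGF libraries lay above all others. C4b in GF against CGF was -3.31 (SE 0.46, adjusted p = 6e-05), and CGF against SPF was 2.34 (SE 0.47) with an adjusted p of 0.07. The CGF against SPF value passed without CGF mouse 18 (2.51, adjusted p = 0.027), without SPF mouse 32 (3.33, adjusted p = 0.012) and with DESeq2 (2.36, adjusted p = 0.000328). In the upper-layer neurons C4b was 3.54 to 7.48 CPM in CGF libraries, above the 0.541 to 1.67 CPM of SPF and the 0.362 to 0.486 CPM of GF libraries. In oligodendrocytes of PFC it was 124, 47.6 and 20.9 CPM in CGF, 23.0, 22.0 and 19.7 CPM in SPF and 3.94, 6.46 and 4.54 CPM in GF mice, and C4b did not pass the filter on low counts in this type in PFC. The GF libraries were lowest, and CGF and SPF libraries overlapped. Hip levels of C4b passed the test as below PFC levels in 5 of 5 tested types in CGF mice (log2 difference -2.61 to -2.76), in 2 of 5 in SPF mice and in 0 of 5 in GF mice. In SPF mice the log2 difference was negative in each tested type, from -0.36 to -2.45. Of all gene and type pairs, 46.6% differed between the regions in CGF mice, 45.5% in SPF mice and 12.1% in GF mice. In CGF and SPF mice the region cannot be told apart from the gap in depth and mitochondrial share.

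C3, the central component of the cascade at chr17:57203970-57228136, was nearly absent from these nuclei. It gave 27 UMIs over all Hip libraries and 20 over all PFC libraries, of which 10 and 14 lay in excitatory neurons, the most numerous nuclei, and 5 in ependymal cells of Hip. It did not pass the filter on low counts in any major type. Itgam has 2 identifiers in the matrices, ENSMUSG00000030786 at chr7:128062640-128118491 and ENSMUSG00000108596 at chr7:128062683-128128160, which share 55809 bases on the same strand and which the annotation names Itgam and Gm49368. The first had 0 UMIs in Hip and 2 in PFC, both in microglia of CGF mice. A count of 0 in microglia allows up to 4.88 to 8.52 CPM in a Hip library and 4.61 to 39.7 CPM in a PFC library, taking 3 UMIs as the limit. The second had 44 UMIs in Hip and 73 in PFC, 33 and 37 of them in microglia, so the UMIs counted at the locus lay almost all under the second identifier. How reads that fit both identifiers were counted is not given in the sources used here. The counts and limits may therefore fall short of the RNA of the locus. The second identifier had a mean in microglia of 8.26 CPM in Hip and 19.7 CPM in PFC. It was lower in Hip than in PFC microglia of SPF mice (-2.31, SE 0.60, adjusted p = 0.0043), and in GF mice the log2 difference was -0.57 and in CGF mice -0.18, neither past the test. All intervals and limits cover counting error only.

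Serping1, the C1 inhibitor at chr2:84765387-84775444, was highest in fibroblasts. Its mean there was 69.6 CPM in Hip and 64.4 CPM in PFC, followed by 17.2 CPM in endothelial cells of Hip and by 34.1 CPM in mural and 11.5 CPM in endothelial cells of PFC. In Hip the fibroblasts were above endothelial cells and these above astrocytes in 9 of 9 libraries (exact sign-flip permutation test, adjusted p = 0.0172 for each). In PFC the difference between fibroblasts and mural cells did not pass (adjusted p = 0.127 by the same exact test). In PFC fibroblasts, whose GF nuclei lay mostly in a cluster of their own, Serping1 stood at 109, 120.2 and 86.2 CPM in GF, 23.0, 68.6 and 57.5 CPM in SPF and 46.8, 27.8 and 40.3 CPM in CGF mice. The GF libraries were above all others, with a log2 fold change of 1.39 against CGF (SE 0.30, adjusted p = 0.00034) and of 0.92 against SPF (SE 0.33, adjusted p = 0.034). The latter did not pass with DESeq2 or without any one of GF mice 5 and 6 and SPF mice 30 and 32, and was 0.67 without SPF mouse 30. In Hip fibroblasts the groups overlapped, at 95.4, 48.9 and 108 CPM in GF, 71.8, 85.2 and 51.7 CPM in SPF and 52.4, 51.9 and 60.8 CPM in CGF mice. Serping1 in excitatory neurons was low, 1.13 to 2.02 CPM in Hip and 0.249 to 0.583 CPM in PFC, and higher in Hip in each group, by 1.59 for GF mice and by 2.30 for both SPF and CGF mice (adjusted p = 9.5e-05, 2.5e-06 and 1.4e-06).

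In all Hip libraries together Csmd1 gave 2715643 UMIs, Csmd2 182916 and Csmd3 728063. These are very long genes: Csmd1 spans 1643050 bases (chr8:15892537-17535586, minus strand), Csmd3 1211427 bases (chr15:47580637-48792063, minus strand) and Csmd2 579800 bases (chr4:127987857-128567656, plus strand). Nuclei hold unspliced RNA, and whether reads from introns were counted is not given in the sources used here. Csmd1 overlaps the antisense genes Gm16346 and Gm16347, and Csmd2 overlaps Csmd2os and Hmgb4 on the other strand and Hmgb4os on its own strand. Each Csmd gene had its own order of types. Csmd1 was highest in excitatory neurons (mean 5856 CPM in Hip, 5230 CPM in PFC) and OPC (oligodendrocyte precursor cells, 5710 and 4021 CPM), whose difference did not pass in Hip but did in PFC (exact sign-flip permutation test, adjusted p = 0.274 and 0.0266). Csmd2 was highest in OPC, at 689 CPM in Hip and 811 CPM in PFC. OPC were above excitatory neurons in 9 of 9 Hip libraries for Csmd2 (exact test, adjusted p = 0.0172), and the same pair in PFC did not pass (adjusted p = 0.0862, exact test). Csmd3 was highest in microglia, at 4287 CPM in Hip and 2874 CPM in PFC, above OPC in 9 of 9 Hip libraries (exact test, adjusted p = 0.0172) and in 8 of 9 PFC libraries (exact test, adjusted p = 0.0977).

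**Figure D4:**
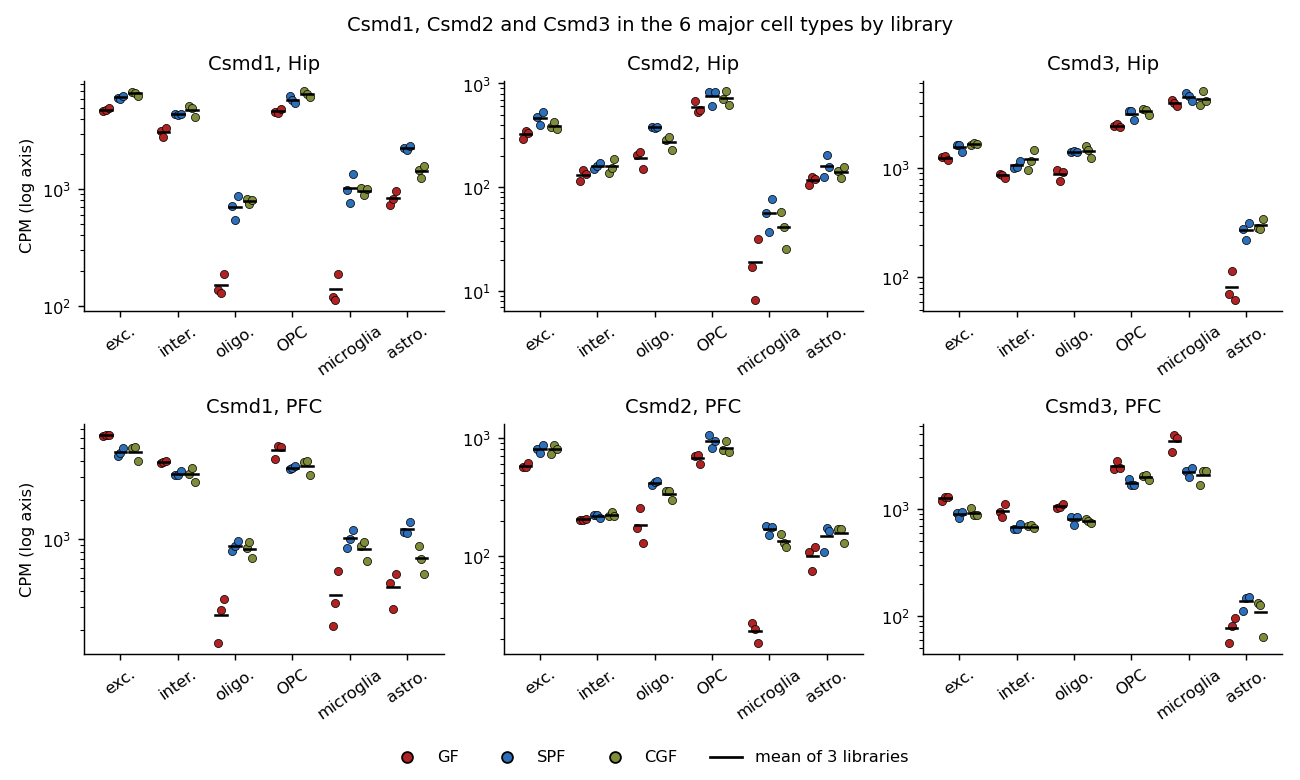
Level of Csmd1, Csmd2 and Csmd3 in 6 cell types for each library (vertical log axis, CPM; colours are GF, SPF and CGF). Csmd1 in Hip microglia is at 111 to 187 CPM in GF against 762 to 1350 CPM in SPF mice, and Csmd3 in Hip microglia overlaps between the groups.

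Csmd1 was lower in GF than in SPF mice in 6 of 6 major types of Hip, where 36.3% of all gene and type pairs passed in either direction, and of these OPC turned to 0.22 on the log2 scale with the length and GC trend removed. In Hip excitatory neurons it stood at 4644, 4747 and 4963 CPM in GF, 6111, 5974 and 6306 CPM in SPF and 6893, 6733 and 6331 CPM in CGF mice, a log2 fold change of -0.53 against SPF (SE 0.06, adjusted p = 0.0001). The GF libraries lay below all others. The same held in subtypes of these neurons: 4831 to 5092 CPM in GF against 5649 to 6256 CPM in SPF in CA1, 4457 to 5069 against 6167 to 6580 in CA3, and 4140 to 4490 against 5649 to 5896 in granule neurons of the dentate gyrus. As fitted, the largest Hip change of Csmd1 was in microglia, though with the trend removed it was in oligodendrocytes (-0.89, against -0.79 in microglia). Csmd1 in Hip microglia stood at 119, 111 and 187 CPM in GF, 985, 762 and 1350 CPM in SPF and 1026, 889 and 996 CPM in CGF mice (-2.89, SE 0.22, adjusted p = 2.4e-10). In oligodendrocytes of Hip it was -2.16 (SE 0.17), in astrocytes -1.39 (SE 0.13), in interneurons -0.64 (SE 0.13) and in OPC -0.40 (SE 0.10). Csmd1 in microglia was 2.91% of its excitatory level for GF mice, 16.8% for SPF mice and 14.6% for CGF mice of Hip, and the summed excitatory-neuron markers in these microglia were also lowest in GF mice, as given above. In the Hip microglia of SPF mice, the summed markers Slc17a7 and Neurod2 were at 181% and 160% of their excitatory level. Arpp21, Camk2a and Sv2b were at 18.4%, 23.9% and 60.6% there. The part of neuronal RNA in the Csmd1 levels of glia was not tested.

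In PFC the direction of Csmd1 split by cell type. In excitatory neurons it was 6246, 6365 and 6331 CPM in GF, 4393, 4584 and 4997 CPM in SPF and 5059, 5101 and 3996 CPM in CGF mice. Here GF was above all others, with a log2 fold change against SPF of 0.60 (SE 0.15, adjusted p = 0.0037). Csmd1 rose likewise in OPC (0.49, SE 0.16, adjusted p = 0.013) and interneurons (0.36, SE 0.12, adjusted p = 0.021), and neither passed without GF mouse 7, SPF mouse 30 or SPF mouse 31. It fell in microglia (-1.59, SE 0.23), oligodendrocytes (-1.72, SE 0.20) and astrocytes (-1.45, SE 0.19). In these glia Csmd1 was 5.85%, 4.14% and 6.82% of its excitatory level for GF mice and 21.8%, 18.98% and 25.8% for SPF mice. In the same order Arpp21 was at 174, 144 and 172 CPM in GF and 396, 325 and 279 CPM in SPF mice. Camk2a, Slc17a7 and Sv2b were also lower in GF mice, while Neurod2 was higher in oligodendrocytes and astrocytes. The part of neuronal RNA in these glial levels was not tested. The difference of the GF against SPF change between regions was -1.19 in excitatory neurons (SE 0.15, adjusted p = 2.8e-06), -1.01 in interneurons, -0.83 in OPC and -1.25 in microglia, all past the test, and 0.05 in astrocytes and -0.47 in oligodendrocytes, which were not. The microglial difference of Csmd1 did not pass without SPF mouse 30 (-1.15) or with the length and GC trend removed (-0.71). In PFC layer 6 neurons Csmd1 was 7549 to 8135 CPM in GF against 4985 to 5974 CPM in SPF libraries, and in upper-layer neurons 6496 to 6767 against 4733 to 5157.

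These changes were smaller in most types once that dependence on gene length and GC content was taken out. The GF against SPF changes of Csmd1 in Hip were then -0.08 in excitatory neurons, -0.20 in interneurons and 0.22 in OPC, and -0.89 in oligodendrocytes, -0.79 in microglia (adjusted p = 0.0019) and -0.51 in astrocytes. In PFC Csmd1 was 0.31 in excitatory neurons, 0.14 in interneurons, 0.60 in OPC, -0.85 in oligodendrocytes, -0.08 in microglia and -0.73 in astrocytes. The length and GC trend shifted the median of all genes in the comparison between regions from between -0.125 and -0.033 to between 0.041 and 0.110 over the 6 types.

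**Figure D5:**
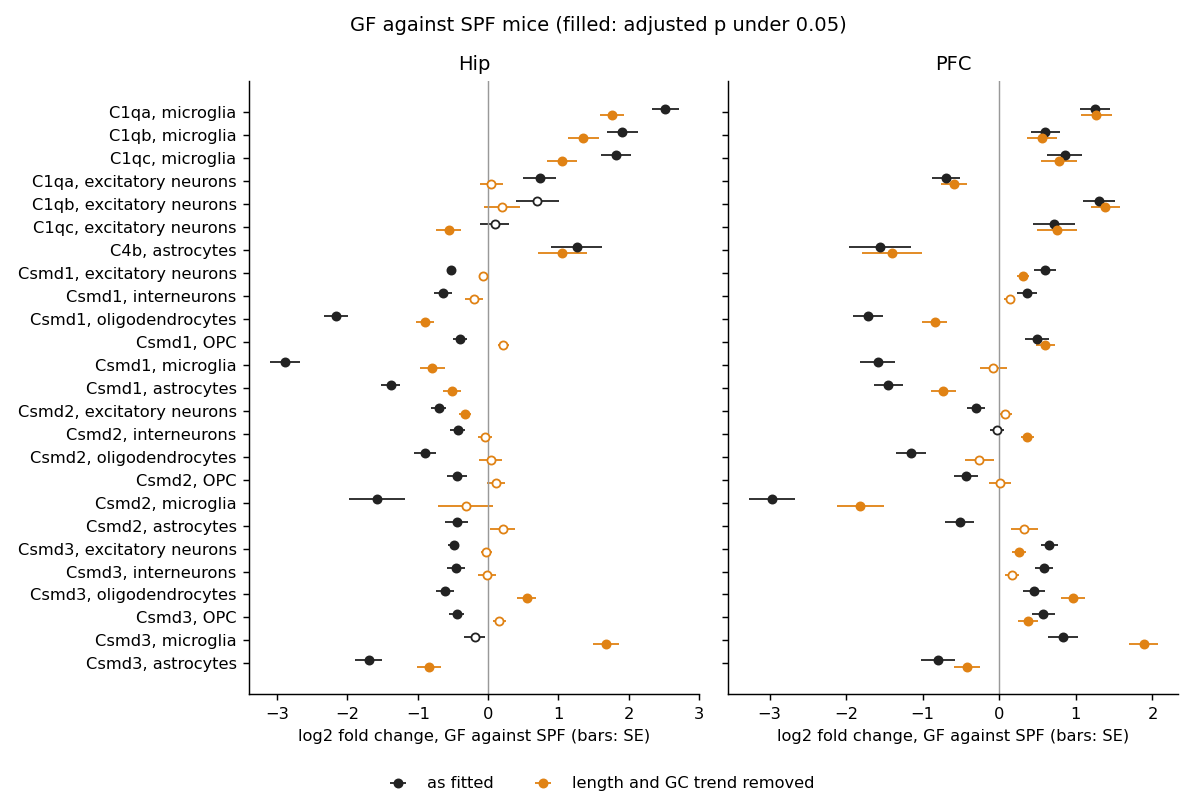
Log2 fold change of GF against SPF with its SE for members in major cell types of Hip and PFC, as fitted and with the trend on gene length and GC content removed; filled points passed the test at an adjusted p of 0.05. C1qa in Hip microglia moves from 2.52 to 1.76, and Csmd1 in Hip microglia from -2.89 to -0.79.

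Csmd2 passed as lower in GF than in SPF mice in 6 of 6 major types of Hip and in 5 of 6 of PFC, where 36.3% and 51.9% of all gene and type pairs passed in either direction. With the length and GC trend removed its sign turned in astrocytes (0.21), oligodendrocytes (0.03) and OPC (0.11) of Hip and in astrocytes (0.32), excitatory neurons (0.08) and OPC (0.0090) of PFC. In the OPC of Hip Csmd2 was 677, 529 and 559 CPM in GF, 832, 607 and 834 CPM in SPF and 707, 837 and 616 CPM in CGF mice (-0.44, SE 0.14, adjusted p = 0.026). These ranges overlapped, and the OPC change did not pass with DESeq2 or without any one of GF mice 6 and 7 and SPF mice 30 and 32. Csmd2 in Hip excitatory neurons was 291, 348 and 331 CPM in GF against 477, 396 and 528 CPM in SPF and 379, 426 and 361 CPM in CGF mice, with GF below all others (-0.70, SE 0.11, adjusted p = 0.00049). The sharpest change of Csmd2 was in PFC microglia, at 27.3, 24.5 and 18.5 CPM in GF, 181, 152 and 175 CPM in SPF and 153, 129 and 119 CPM in CGF mice (-2.97, SE 0.30, adjusted p = 9.2e-10, and -1.82 with the length and GC trend removed). Csmd2 in these microglia was 4.02% of its excitatory level for GF mice, 21.2% for SPF mice and 16.8% for CGF mice. The summed excitatory-neuron markers in them were also lowest in GF mice, at 738 to 819 CPM against 1099 to 1503 CPM in SPF and 953 to 1159 CPM in CGF libraries. Mainly Arpp21 and Camk2a carried this, at 174 and 140 CPM in GF, 396 and 294 CPM in SPF and 319 and 288 CPM in CGF mice. In the same order of groups Slc17a7 was at 297, 395 and 271 CPM, so it was not lowest in GF mice. Sv2b was at 135, 201 and 137 CPM and Neurod2 at 39.0, 40.9 and 53.2 CPM. The part of neuronal RNA was not tested. In the interneurons of PFC the change of Csmd2 was -0.03 (SE 0.09, adjusted p = 0.77). In Hip, only the excitatory change of Csmd2 passed with the length and GC trend removed (-0.33, adjusted p = 0.017).

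Csmd3 in microglia did not follow Csmd1. In Hip microglia it was 4243, 3961 and 3765 CPM in GF, 4863, 4609 and 4141 CPM in SPF and 3773, 5067 and 4161 CPM in CGF mice (-0.19, SE 0.15, adjusted p = 0.38). These groups overlapped, and the log2 fold change was 1.68 with the length and GC trend removed. In PFC microglia Csmd3 was 3399, 4968 and 4594 CPM in GF, 2265, 1989 and 2435 CPM in SPF and 1671, 2266 and 2276 CPM in CGF mice, with GF above all others (0.83, SE 0.19, adjusted p = 0.00086, and 1.88 with the trend removed). Csmd3 fell in GF mice in the other 5 types of Hip, although with the trend removed it turned to 0.55 in oligodendrocytes and 0.16 in OPC, and the fall in interneurons did not pass without GF mouse 7 or SPF mouse 32. The fall was greatest in astrocytes (-1.70, SE 0.19), where it was 70.0, 115 and 61.9 CPM in GF and 275, 219 and 317 CPM in SPF mice. Csmd3 in these astrocytes was 6.56% of its excitatory level for GF mice, 17.3% for SPF mice and 17.9% for CGF mice. Each summed excitatory-neuron marker was also lower in them in GF than in SPF mice, such as Arpp21 at 134 and 211 CPM. In PFC Csmd3 rose in excitatory neurons (0.65), interneurons (0.58), oligodendrocytes (0.45) and OPC (0.58) and fell in astrocytes (-0.80), of which the rise in oligodendrocytes did not pass without SPF mouse 31 (0.34). In PFC astrocytes Csmd3 was 6.11% of its excitatory level for GF mice and 15.3% for SPF mice. The part of neuronal RNA was not tested in either region. The difference of the change between regions passed for Csmd3 in 6 of 6 types, from -0.92 in astrocytes to -1.20 in excitatory neurons, and in none with the length and GC trend removed. Of all gene and type pairs, 31.9% passed this test. The astrocyte difference of Csmd3 did not pass with DESeq2, with RLE size factors or without any one of GF mouse 7 (-0.47), SPF mice 30 and 32 and CGF mouse 18, and it passed in 3 of 10 draws of the thinned sums. The microglial difference did not pass without SPF mouse 30 (-0.89). Csmd3 passed as higher in Hip than in PFC in 6 of 6 types in SPF mice (0.84 to 1.04) and in CGF mice (0.83 to 1.47) and in 0 of 6 in GF mice, where 45.5%, 46.6% and 12.1% of all pairs passed. In SPF and CGF mice this cannot be told apart from the gap in depth and mitochondrial share between their Hip and PFC libraries.

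Counted over the 10 members and 6 major types, 38 of the 60 pairs had enough counts to be tested in Hip and 31 in PFC. The comparisons below share groups and are given side by side for that reason. In GF against SPF mice of Hip, 22 of 38 pairs passed, 5 higher and 17 lower, where 36.3% of all gene and type pairs passed. The median log2 fold change of the tested pairs was -0.21, while the all-gene median of a type lay between -0.026 and 0.037. With the length and GC trend removed 13 pairs passed, 6 higher and 7 lower. In PFC 26 of 31 pairs passed, 15 higher and 11 lower, against 51.9% of all pairs, with a median of 0.36. The comparison of GF with CGF mice gave 29 of 38 pairs in Hip, 13 higher and 16 lower, against 37.3%, and 12 with the trend removed, 8 higher and 4 lower. In PFC it gave 23 of 31 pairs, 15 higher and 8 lower, against 50.9%. With the trend removed, fewer pairs of PFC were lower in each of these comparisons.

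Between CGF and SPF mice, edgeR with the filter and without removal of the trend called 0 of 38 pairs in Hip, where 0.295% of all pairs passed, and 0 of 31 in PFC, where 0.247% passed. In Hip it called 1 pair without the filter, 1 with the trend removed and 1 under the gate on each nucleus, and in PFC 2 without the filter. At an unadjusted p below 0.05 there were 10 and 4 such pairs, where 10.2% and 9.96% of all gene and type pairs were below it. DESeq2 called 1 in each region: Csmd1 in Hip astrocytes (-0.61, adjusted p = 0.0045) and C4b in the excitatory neurons of PFC (given above). Csmd1 in Hip astrocytes was 2268, 2183 and 2325 CPM in SPF, 1467, 1244 and 1573 CPM in CGF and 727, 831 and 972 CPM in GF mice, so the CGF libraries lay between the other groups. In edgeR its adjusted p was 0.089. A p that misses the threshold does not show that CGF and SPF mice were alike: in Hip microglia the CGF against SPF log2 value was -0.21 (SE 0.23) for C1qa, 0.02 (SE 0.25) for C1qb and -0.06 (SE 0.25) for C1qc.

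Between regions, 7 of 39 pairs differed in GF mice (12.1% of all pairs), 22 of 39 in SPF mice (45.5%) and 25 of 39 in CGF mice (46.6%). The GF against SPF change differed between regions in 17 of 39 pairs, 5 with a higher value in Hip and 12 with a lower one, against 31.9% of all pairs. With the length and GC trend removed, 11 pairs passed, 4 higher and 7 lower. That setting also turned the balance over all genes, from 10980 higher and 13477 lower to 12502 higher and 8447 lower for the difference of changes, from 18312 and 16621 to 13480 and 19550 for Hip against PFC in SPF mice, and from 18438 and 17306 to 13550 and 19681 in CGF mice. Since the SPF and CGF libraries of PFC stood apart from their Hip libraries in depth and mitochondrial share, the region comparisons of these mice and the difference of changes cannot be told apart from that.

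Over the 17 mean levels of named types in both regions, the genes whose pattern was most like a C1q chain included Csf1r, the receptor that microglia need to survive, and Ctss, a protease of phagocytes. Among 18589 genes with at least 200 UMIs, C1qa was most like Tyrobp (Pearson r of log2(CPM + 1) 0.985), Ltc4s (0.979) and Ctss (0.978). C1qb was most like Ctss (0.984), C1qc (0.982) and Csf1r (0.981), and C1qc most like Csf1r (0.983), Tmem173 (0.982) and C1qb (0.982). Serping1 was most like Nfatc4 (0.980), Foxd1 (0.978) and Loxl2 (0.978), and C4b most like Wbp1 (0.928), Rfxank (0.926) and Ilk (0.919). Csmd1 followed Fgf14 (0.973), Nrg2 (0.967) and Gpr45 (0.959), Csmd2 followed Grik4 (0.891), Il1rapl1 (0.878) and Tmem132b (0.878), and Csmd3 followed Ptpre (0.907), March1 (0.905) and Slc8a1 (0.896). The points share libraries and depth, and C3 and Itgam had too few UMIs. Between members, r was 0.680 for Csmd1 and Csmd2, 0.594 for C4b and Serping1 and -0.718 for C4b and Csmd1.

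The rest of the complement list held 49 genes in the matrices beside the members. Of its 103 tested pairs in Hip, 10 passed as higher and 32 as lower in GF than in SPF mice, 40.8% in all against 36.3% of all gene and type pairs, with a median of -0.27. Of its 82 pairs in PFC 12 passed as higher and 25 as lower, 45.1% in all against 51.9%. Pairs counted as higher or lower below also passed the test. Over all genes the calls were 14496 higher and 12330 lower in Hip and 15150 and 14858 in PFC. With the length and GC trend removed the counts were 5 and 24 in Hip and 16 and 24 in PFC. Among the fluid-phase regulators, which include Serping1, 3 of 19 pairs were higher and none lower in Hip, which became 1 and 5 with the trend removed, and 7 of 12 were higher and none lower in PFC, which became 6 and 1. These are 15.8% and 58.3% of the pairs, beside the same 36.3% and 51.9%. Clu, clusterin, which binds the terminal complex, rose in astrocytes of Hip (1.93, adjusted p = 1.3e-07) and in OPC (2.09), oligodendrocytes (1.92), astrocytes (1.86) and microglia (1.53) of PFC. Ptx3, a pentraxin that binds C1q, rose in Hip excitatory neurons (1.78, SE 0.64, edgeR adjusted p = 0.041, near the threshold). The membrane regulators, which include the Csmd genes, counted 4 higher and 39 lower of 64 pairs in Hip, which became 5 and 14 with the trend removed, and 11 higher and 19 lower of 57 in PFC, which became 14 and 12. These are 67.2% and 52.6% of the pairs, beside 36.3% and 51.9%, and 17 of the 39 lower pairs of Hip are the Csmd pairs already given. Of the neuronal pentraxins, which gather glutamate receptors at synapses, none was higher, and 7 of 15 pairs in Hip and 5 of 14 in PFC were lower (8 lower in Hip, and 1 higher and 3 lower in PFC with the trend removed), with Nptxr at -1.55 in the excitatory neurons of PFC. These are 46.7% and 35.7% of the pairs, beside 36.3% and 51.9%. Cfp, properdin of the alternative pathway, was lower in 4 of 4 pairs of PFC, by -2.08 in OPC and -1.70 in astrocytes, and 0 of its 3 tested pairs in Hip passed, with a median of 0.044. With the trend removed the 4 pairs of PFC were still lower, and 1 of the 3 in Hip was lower too, with a Hip median of -0.46. The shares of all gene and type pairs were the same 51.9% in PFC and 36.3% in Hip.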

How the data were processed

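Nuclei of the hippocampus and prefrontal cortex of 9 mice (18 libraries) were profiled with the 10x Genomics Chromium system. The deposited matrices hold raw UMI counts per gene and barcode, which the authors made with Cell Ranger on mm10 after CASAVA 1.8. The matrix headers give Cell Ranger 3.1.0, whereas the submitters' texts differ among themselves on the kit and the Cell Ranger version. No column of another sample was present. Whether intronic reads were counted and whether strand was used are not given in the sources used here.

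Nuclei with at least 200 genes and at most 10% mitochondrial UMIs were kept. Each region was clustered on 2000 variable genes (10 components, 20 neighbours, Leiden resolution 1), without the members and the complement list. A cluster was named where at least 3 markers of 1 type were raised. A raised marker had a mean of at least 2 times the 10th percentile of the clusters and at least 20% of the highest cluster. It was also found in at least 5% of the cluster's nuclei. Clusters stayed unnamed where mitochondrial genes or another type's markers led, or where most nuclei were likely doublets. The same held for low UMIs with no own marker among the leading genes. The thresholds for naming were set after the clusters' marker tables had been seen. Likely doublets were scored (0.8% per 1000 nuclei) and removed only in an alternative. Raw counts were summed per library and type and tested with edgeR 4.0.16 (filterByExpr, TMM, quasi-likelihood) in R 4.3.3, on the counts as deposited, with the library as replicate. All 9 libraries of a region entered a fit, and all 18 the fits across regions. Types needed at least 20 nuclei in every library. Neighbouring types were compared by an exact two-sided sign-flip test of log2(CPM + 1) over 9 libraries. Alternatives were DESeq2 1.42.0, RLE size factors, no filter, thinning (repeated with 10 draws for the fits across regions, which was added after the data were seen), doublet removal, a gate on each nucleus, Leiden resolution 2, removal of a trend on gene length and GC content (GENCODE vM21 annotation, 30766 of 30905 genes), a mouse block, fits of 2 groups only, and leaving out each mouse. Python 3.11.15 with scipy 1.17.1 and leidenalg 0.10.2 was used. On simulated counts for Hip microglia (8002 genes, 200 of them changed by 2 on the log2 scale) edgeR recovered 93.5%, and for PFC microglia (5497 genes) 89.5%, with 13 false calls each. For the difference of the GF against SPF change between regions in microglia (8986 genes) it recovered only 66.5%, with 10 false calls.

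The same mice gave both regions. Deviations from group means correlated over genes at -0.0492 to 0.338 (median 0.0979, 54 values) between the regions of a mouse and at -0.206 to 0.088 (median -0.0474, 108 values) between different mice of a group. Deviations within a group cancel out by construction, so the values between different mice lean negative when same-mouse values are positive. They are no independent baseline. By the same-mouse values alone, the libraries of a mouse deviated together only in part. The pairing comes from the mouse numbers in the labels.

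All 10 members were named. Of the complement list, genes past the threshold for GF against SPF were named, at most the 3 with the largest log2 fold change in each type and region, and for likeness the 3 genes with the highest r for each member. The members and lists were chosen with earlier results of these data known. Nothing states that libraries were made in separate runs, and p-values measure the spread between mice as sampled here. Promoter sequences came from RefSeq, and of the members C1qb, C1qc, C3 and Itgam matched.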

Additional observations from a re-analysis of the deposited data

Results flagged for a closer look

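The GF against SPF change differed between Hip and PFC, by edgeR's test of the difference itself, in 17 of 39 pairs of a member and a major cell type, where 31.9% of all gene and type pairs passed. Values are the log2 change in Hip minus that in PFC. The C1q chains had higher values in Hip microglia, at 1.33 for C1qa, 1.36 for C1qb and 1.02 for C1qc, and C1qa in excitatory neurons differed by 1.37. C4b in astrocytes had the largest difference, 2.79, with opposite directions in the regions. Csmd1 had lower values in Hip in excitatory neurons (-1.19), interneurons (-1.01), OPC (-0.83) and microglia (-1.25). Csmd2 differed by -0.46 in excitatory neurons and -0.41 in interneurons. The first of these did not pass without any one of GF mice 5 and 7 and SPF mouse 30, and the second without any one of GF mice 5 and 7 and SPF mice 31 and 32 or at a finer clustering (-0.05). Csmd3 differed by -1.20 in excitatory neurons, -1.05 in interneurons, -1.08 in oligodendrocytes, -0.96 in OPC, -0.97 in microglia and -0.92 in astrocytes. The SPF libraries of PFC were shallower and held a higher mitochondrial share than the SPF libraries of Hip, whereas the GF libraries were deeper and held a lower mitochondrial share in PFC than in Hip, and these differences cannot be told apart from that.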

How the results depend on the processing

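Of 183 log2 fold changes of members past the threshold, 87 kept their direction and their side of the threshold in every alternative and 96 did not in at least 1. Removing the trend on gene length and GC content had the widest effect: 107 stayed, 59 no longer passed and 17 changed sign, and the cause was not tested. Signs turned for Csmd2 in Hip astrocytes (GF against SPF, 0.21), Csmd1 in Hip astrocytes (GF against CGF, 0.20), Csmd2 and Csmd3 in Hip oligodendrocytes (GF against SPF, 0.034 and 0.55; GF against CGF, 0.46 and 0.69), and Csmd1, Csmd2 and Csmd3 in Hip OPC (GF against SPF, 0.22, 0.11 and 0.16; GF against CGF, 0.19, 0.17 and 0.26). In PFC they turned for Csmd2 in astrocytes (GF against SPF, 0.32; GF against CGF, 0.13), excitatory neurons (GF against SPF, 0.080) and OPC (GF against SPF, 0.0090), and for Csmd1 in microglia (GF against CGF, 0.065). Under the gate on each nucleus Csmd2 turned in PFC endothelial cells (GF against SPF, 0.51). With the length and GC trend removed, the pairs called fell to 13 for GF against SPF in Hip, 12 for GF against CGF in Hip and 11 for the difference between regions. For CGF against SPF in Hip, 1 pair passed with DESeq2, without the filter, with the trend removed and under the gate. In PFC 1 passed with DESeq2 and 2 without the filter, and 0 to 1 when 1 mouse was left out, the 1 being C4b without CGF mouse 18 or SPF mouse 32. Neighbouring types differed in 20 pairs in Hip and 12 in PFC, and in 15 to 22 and 0 to 13 when 1 mouse was left out, with 0 in PFC without any one of GF mice 5, 6 and 7 and SPF mice 30 and 32. There 11 pairs, as many as with all mice, stood at 0.0078125, the smallest exact p that 8 libraries allow, for which the adjusted p is 0.0518 to 0.0533, so the 0 follows from the size of the design and says nothing about stability. Thinning the sums is random, and 10 draws, added after the data were seen, gave 13 to 18 pairs called for the difference between regions, against 17 unthinned. The mouse as replicate block changed none of 75 calls of the comparisons across regions, for example C1qa in microglia. C3 gave too few UMIs to test in any major type, as did Itgam within a region and C4b in some types, and low expression and low depth cannot be told apart there.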

Other observations

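Other groups of the complement list had few tested pairs, and pairs counted below as higher or lower passed the test. The classical and lectin proteases, counted together with the member C4b, had 14 tested pairs in Hip, 2 higher and 1 lower in GF than in SPF mice, and 11 in PFC, 1 higher and 4 lower (21.4% and 45.5% of the pairs, where 36.3% and 51.9% of all gene and type pairs passed), with Masp2 at -1.38 in PFC interneurons. C4b, which is not a protease, gave 3 of these Hip pairs, 1 of them higher, and 2 of the PFC pairs, 1 of them lower. Of the terminal pathway, 2 of 5 tested pairs were higher and 2 lower in Hip, and 2 of 3 were lower in PFC. These are 80% and 66.7% of the pairs, beside the same 36.3% and 51.9%. With the length and GC trend removed, 1 was higher and 2 lower in Hip and 3 lower in PFC. C6 was higher (1.23, SE 0.43, edgeR adjusted p = 0.036) and C8b lower (-1.58, SE 0.35, edgeR adjusted p = 0.0038) in Hip excitatory neurons. Of the receptors, Cr2 was higher (3.81) and Vsig4 lower (-2.04) in PFC excitatory neurons, and none of 5 tested pairs passed in Hip. Among the membrane regulators outside the Csmd genes, Cr1l (-0.82) and Cd46 (-0.65), which act on C3 and C4 fragments, were lower in Hip interneurons, and Sez6l2 was higher there (0.81). Sez6l was lower in Hip oligodendrocytes (-1.20) and OPC (-0.52), while Cd59a, which blocks the terminal complex, was higher in Hip oligodendrocytes (0.99, SE 0.34, edgeR adjusted p = 0.030). Between CGF and SPF mice 0 of 103 pairs outside the members passed in Hip and 2 of 82 in PFC (0.295% and 0.247% of all pairs passed), both neuronal pentraxins and both lower in CGF mice. With the length and GC trend removed 0 of the 82 passed, and the median of the 14 pentraxin pairs of PFC was -0.73.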
